A study of Mus musculus with 6 samples.

Results

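Genes of the lens fibre cell membrane and cytoskeleton made up 4 of the 5 genes that were high together at E15.5 and P0 in a developmental series of mouse retina. The 5 genes were Mip, Bfsp1, Bfsp2, Lim2 and the long noncoding RNA gene Gm49263, out of 14417 genes with at least 1 poly(A) site. They were chosen by their measured levels at 5 of the 6 stages, P21 excepted, in CPM (tags of a gene scaled to the total of the column). Their level was, at the lower of E15.5 and P0, at least 1.8 times the highest of E13.5, E18.5 and P6. This had to hold in the first and again in the second data column of each stage, with at least 30 tags at E15.5 and at P0, and genes with symbols starting with Cry were left out by name. Retinas of C57BL/6J mice were collected at embryonic days 13.5, 15.5 and 18.5 and postnatal days 0, 6 and 21, and the 3′ ends of polyadenylated RNA were sequenced (PA-seq, in which an oligo(dT)-primed fragment marks the position where the poly(A) tail was added). The labels gave no genotype or treatment, and no number, sex or pooling of animals. Each stage was 1 sample with 2 columns whose meaning was not stated, so the columns were not taken as replicates, and no difference between 2 stages could be tested against the spread between animals.

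The lens of the eye is built from an epithelial layer and from fibre cells, which elongate, lose their organelles and fill with crystallins. Mip encodes aquaporin 0, the main water channel of the fibre cell membrane. Bfsp1 (filensin) and Bfsp2 (phakinin) encode the partners of the beaded filament, an intermediate filament of lens fibres, and Lim2 encodes another abundant fibre membrane protein. These genes are known as markers of lens fibre differentiation and not of retinal neurons.

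Because a PA-seq tag reports the place of cleavage, the last 30 bases before the cleavage edge of the sites of the lens members are shown, with the poly(A) signal (AATAAA or ATTAAA) in capitals. Sequences came from GENCODE M21 transcripts and coordinates are in GRCm38 (mm10), 1-based. The windows lay at chr2:143826530-143826559 (minus strand), chr9:103424926-103424955 (minus strand), chr7:43435963-43435992 (plus strand) and chr10:128231782-128231811 (plus strand), in this order.
Bfsp1: tcATTAAActgctttcttttttgcttgcac
Bfsp2: tctctgAATAAAtactttgcgtgtggctcc
Lim2: ggtgatctAATAAAactgatgtgaaactgt
Mip: cctcccaAATAAAacacatcttttctaact

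Bfsp1, Bfsp2 and Lim2 each had 1 site, in the 3′ UTR. These sites lay at -2, -2 and -4 bases from the annotated gene end, and the Mip site shown lay at -1. The signal began 28 bases before the edge in Bfsp1, 24 in Bfsp2, 22 in Lim2 and 23 in Mip. Over 23054 sites with transcript sequence, AATAAA was found within 40 bases of the edge in 56.8% and ATTAAA without AATAAA in 16.7%. Gm49263 had 1 site, 260 bases past its annotated end on chromosome 15, for which no sequence is shown.

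The labelled tissue was checked against markers of retina. Of 12 progenitor genes, 12 were measured and their summed level in the E15.5 and P0 columns ran from 2144 to 3171 CPM. Of 16 genes of retinal neurons and photoreceptors, 15 were measured, with 7192 and 6441 CPM in the first and second column of P21. At E15.5 their sum was 3773 and 762 CPM and at P0 4161 and 1363 CPM. For this list the columns lay far apart at these stages. Those of the 5 genes lay close together there, but these genes had to meet the limits in both columns. Depth was similar across stages, from 3286158 tags at P0 to 4656153 at E18.5, so that 3 tags corresponded to 0.644 to 0.913 CPM per stage.

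All 16 genes of the lens crystallin list, the major soluble proteins of lens fibres, were measured too. Their sum ran from 3386 to 5152 CPM in the 4 columns of E15.5 and P0, from 154 to 1227 CPM in the 6 columns of E13.5, E18.5 and P6, and from 616 to 1460 CPM at P21. The part of lens tissue in the levels of the 5 genes was not tested, and in bulk tissue fewer cells of a type and less RNA per cell cannot be told apart. Crystallins of the alpha and beta families are also known from retina, so this list is not confined to lens.

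Of 10865 genes with at least 30 tags at both high stages, 18 met the limits (0.166%): the 5 genes and 13 crystallin genes. This share is fixed by the choice of genes and is given as a description. The lower of the ratios in the first and the second columns was 5.21 for Lim2, 5.06 for Bfsp1, 4.25 for Mip, 3.71 for Bfsp2 and 3.27 for Gm49263. The median over all 10865 genes was 0.679. Just inside the limit lay Crybb1 at 2.24, Crygn at 2.18 and Crybb3 at 1.96. Just outside it lay Grifin, a galectin-related lens protein, at 1.77, Cryab at 1.46 and Gm12439 at 1.33. Between 1.8 and 3.27 there were crystallin genes only.

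**Figure D1:**
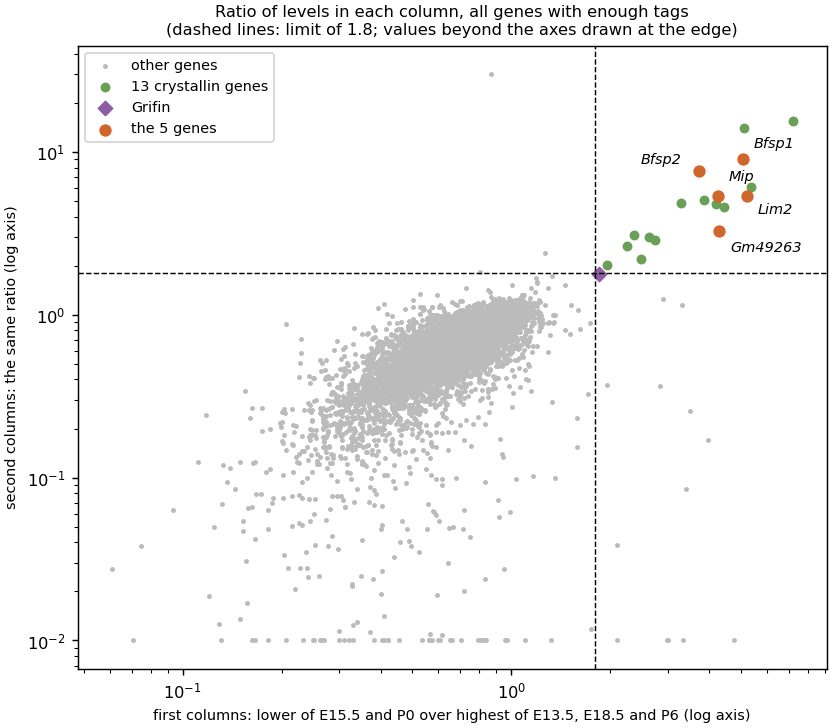
Ratio of the lower of E15.5 and P0 to the highest of E13.5, E18.5 and P6 in the first columns (x axis) and the second columns (y axis), both on log scales, for 10865 genes; dashed lines mark the limit of 1.8. The 5 genes and the 13 crystallin genes stand in the upper right corner, and Grifin, at 1.84 and 1.77, lies on the edge.

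Mip (chr10:128225838-128231812, plus strand) had 41.2 and 35.0 CPM in the first and second column at E13.5, 175 and 188 CPM at E15.5, 11.6 and 9.72 CPM at E18.5, 178 and 192 CPM at P0, 6.01 and 0 CPM at P6, and 26.0 and 0.509 CPM at P21. The columns of E15.5 and P0 overlapped each other and lay above every other column. The level at P0 was 1.02 times that at E15.5 (exact 95% interval 0.916 to 1.14, here and below for counting error only). Between them, at E18.5, the level was 0.0592 times that at E15.5 (0.0435 to 0.0790).

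Lim2 (chr7:43427670-43435996, plus strand) had 19.6 and 22.6 CPM at E13.5, 102 and 121 CPM at E15.5, 14.8 and 4.63 CPM at E18.5, 141 and 180 CPM at P0, 3.70 and 1.54 CPM at P6, and 23.0 and 1.53 CPM at P21. As with Mip, E13.5 was the highest of the 3 low stages, and P6 the lowest of all. Unlike in Mip, P0 was above E15.5, at a ratio of 1.44 (1.26 to 1.64), and the columns of these stages did not overlap.

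The beaded filament genes had other orders of low stages, which differed between them. Bfsp1 (chr2:143826528-143863173, minus strand) had 19.6 and 9.02 CPM at E13.5, 111 and 117 CPM at E15.5, 22.0 and 11.6 CPM at E18.5, 204 and 236 CPM at P0, 12.9 and 12.9 CPM at P6, and 27.1 and 5.09 CPM at P21. Its E13.5 and E18.5 levels had a ratio of 0.855 (0.596 to 1.22), against 3.57 (2.57 to 5.02) for Mip and 2.08 (1.43 to 3.05) for Lim2. Its 4 lower stages were, from the highest, E18.5, P21, E13.5 and P6, and the columns of each overlapped those of the next.

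Bfsp2 (chr9:103424924-103480420, minus strand) had 9.31 and 3.38 CPM at E13.5, 34.6 and 39.0 CPM at E15.5, 2.80 and 0 CPM at E18.5, 63.9 and 71.3 CPM at P0, 5.54 and 5.14 CPM at P6, and 5.62 and 3.56 CPM at P21. As in Mip and Lim2 and unlike in Bfsp1, E13.5 was the highest of the 3 low stages, though its columns overlapped those of P6. Here E18.5 was the lowest stage, at 0.281 times P6 (0.101 to 0.681), while Mip and Lim2 had E18.5 over P6 ratios of 3.39 (1.82 to 6.81) and 3.77 (1.93 to 8.06). At P6 the level of Bfsp2 was 0.0792 times that at P0 (0.0487 to 0.123) and that of Bfsp1 0.0586 times (0.0435 to 0.0775). For Mip and Lim2 the same ratios were 0.0171 (0.00904 to 0.0294) and 0.0167 (0.00828 to 0.0301). With columns added, the P6 over P0 ratios of the beaded filament genes lay above those of the membrane protein genes. Their intervals did not overlap, but this comparison was made after the values were seen and without replicates. It rested on few tags and depended on adding columns: at P6 Mip had 13 tags in the first column and 0 in the second. In the 13 crystallin genes the same ratio ran from 0.0115 to 0.0738, with a median of 0.0372.

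Gm49263 (chr15:36723647-36725236, plus strand), a lincRNA gene of no stated function, rested on 111 tags in all. It had 1.96 and 3.38 CPM at E13.5, 13.2 and 15.8 CPM at E15.5, 0.401 and 0 CPM at E18.5, 8.43 and 11.1 CPM at P0, 1.85 and 0 CPM at P6, and 4.08 and 0 CPM at P21. It was the only one of the 5 with E15.5 above P0 in both columns, at a P0 over E15.5 ratio of 0.672 (0.421 to 1.06), an interval that includes 1. Its site is counted only through the flank of 1000 bases past the gene end, and with sites inside genes alone it had no tags.

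**Figure D2:**
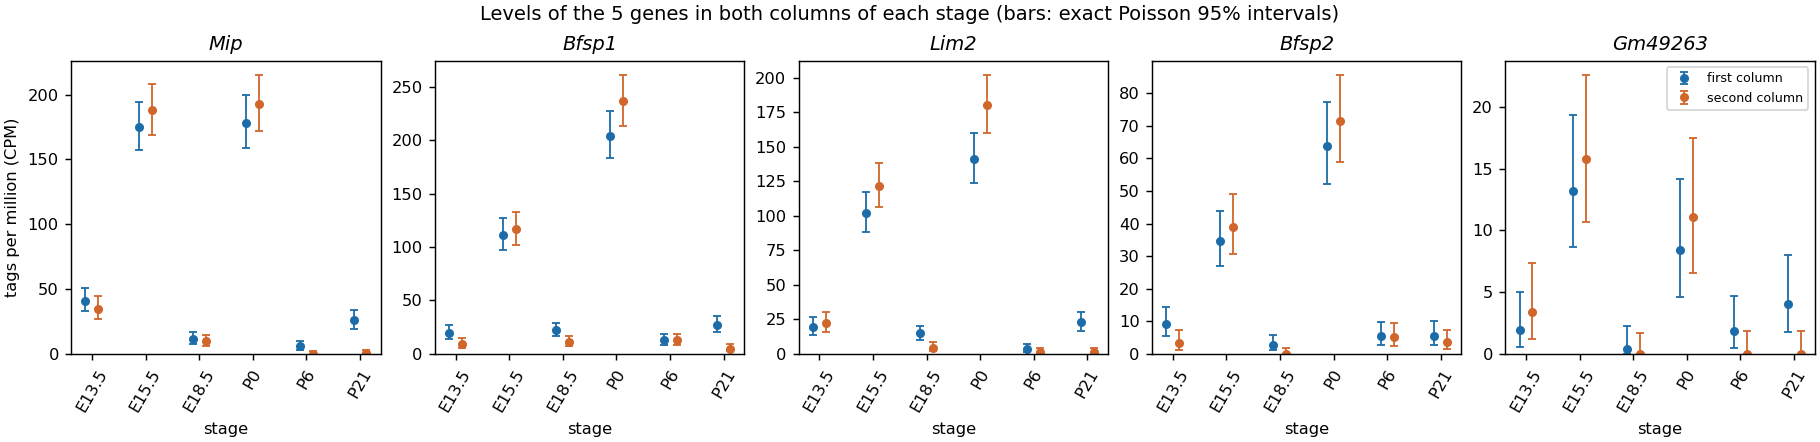
CPM of each gene (y axes, separate scales) by stage (x axes), with the first column in blue, the second in orange and exact Poisson 95% intervals as bars. E15.5 and P0 stand above the other 4 stages in every panel, and the columns of P21 lie apart for Mip, Bfsp1 and Lim2.

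Added up, the 5 genes had 92 and 73 CPM at E13.5, 436 and 481 CPM at E15.5, 52 and 26 CPM at E18.5, 596 and 691 CPM at P0, 30 and 20 CPM at P6, and 86 and 11 CPM at P21. Of the tags of a member, 79.3% (Gm49263) to 83.7% (Lim2) came from E15.5 and P0. These shares largely follow from the choice of genes and are a description.

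The high stages were not alike for all lens genes. P0 was above E15.5 for Bfsp1, at 1.93 (1.71 to 2.18), and for Bfsp2, at 1.84 (1.48 to 2.28), as well as for Lim2. The ratio in the 13 crystallin genes ran from 0.804 (Crygn) to 3.86 (Crygs), with a median of 1.64. The rest of the lens lists went both ways. Without the members, 9 of 15 measured genes of lens fibre structure and membrane had a ratio above 1 (median 1.09), as had 6 of 12 lens transcription factors (median 0.995) and 0 of 13 lens capsule genes (median 0.653). Epha2, at 2.66, and Tmod1, at 3.07, were among the high ones. The following genes were named, after their values were seen, for ratios under 1. It was 0.539 (0.310 to 0.910) in Gja3, a connexin gene of lens fibres. It was 0.0560 (0.0202 to 0.125) in Foxe3, a transcription factor of the lens epithelium, and 0.100 (0.0262 to 0.274) in Pitx3, a lens transcription factor also known for dopaminergic neurons. Foxe3 had 33.3 and 35.5 CPM at E13.5, 28.0 and 37.5 CPM at E15.5, and 3.01 and 0.615 CPM at P0. Its E13.5 over E15.5 ratio was 1.05 (0.818 to 1.36), against 0.211 (0.176 to 0.253) for Mip.

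**Figure D3:**
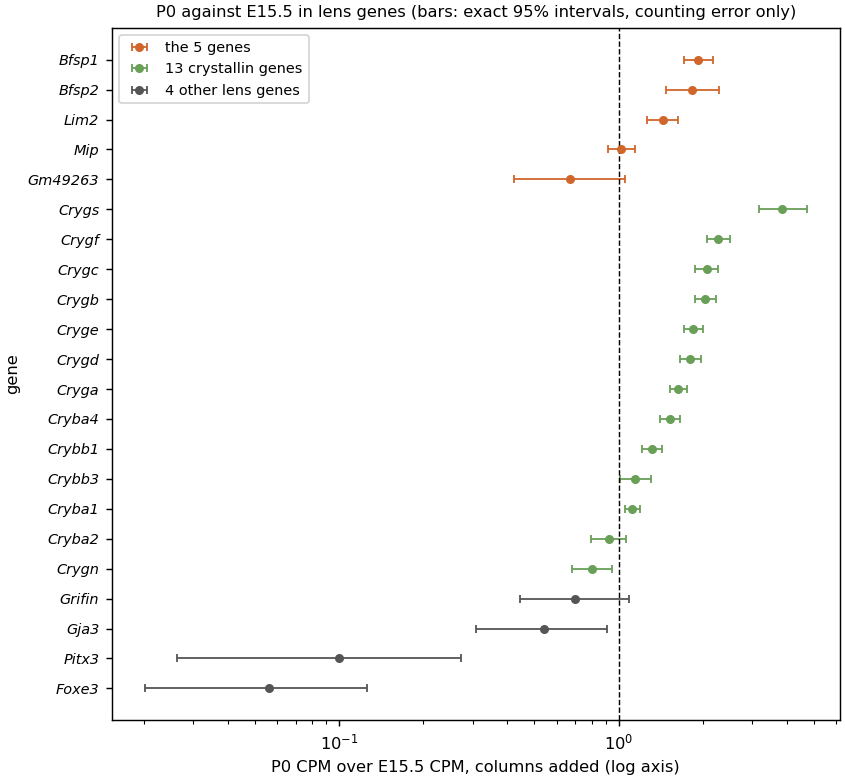
Ratio of P0 to E15.5 CPM with both columns added (x axis, log scale) for the 5 genes, the 13 crystallin genes and 4 other lens genes, with exact 95% intervals as bars. Bfsp1, Bfsp2 and Lim2 lie right of 1, Mip at 1.02, and Gja3, Pitx3 and Foxe3 left of 1.

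The lists of lens genes were searched for the same pattern. Several of their genes, such as Prox1 and Sox2, are also known from retina. The counts are therefore no measure of the share of the lens programme with the pattern. Of 23 genes of lens fibre structure and membrane, 19 were measured, 12 had at least 30 tags at E15.5 and P0, and 4 met the limits, all of them among the 5 genes. The median lower ratio of those 12 was 0.988. Gja3, with 22 tags at P0, was left out by the minimum of tags and met the limits without it. None met the limits in the list of 15 lens transcription factors (12 measured, 9 with enough tags to be counted) or of 15 lens capsule genes (13 measured, 10 with enough tags). In the lists of surface epithelium, skeletal muscle, mesenchyme, pigment epithelium, red blood cells, vessels, microglia, progenitors and retinal neurons the number was also 0, but few genes of some lists had enough tags to be counted: 1 for skeletal muscle, 3 for surface epithelium, and 4 each for mesenchyme and vessels. No site was seen for Krt5, Krt14 and Trp63, which define surface epithelium, or for Myh3, Myh8 and Ckm of muscle. The summed surface epithelium list (10 of 15 measured) ran from 61.0 to 105 CPM at E15.5 and P0, against 49.6 to 102 CPM at the 3 low stages. The muscle list (10 of 18 measured) ran from 53.9 to 74.4 CPM against 33.3 to 90.0 CPM.

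P21 was not used to choose the genes. None of the 5 was high at P21, where high means at least 1.8 times the highest of E13.5, E18.5 and P6 in both columns. Over all 10865 genes 2.79% were, and 1 of the 13 crystallin genes was. With so low a share over all genes, a count of 0 among 5 does not set the members apart. All 5 were lower at P21 than at E15.5 and P0 by at least 1.8 times in both columns, against 10.3% of all genes and 12 of the 13 crystallin genes. The E15.5 and P0 levels in that comparison are those that chose the genes, so the count describes them and is no test. With columns added, P21 over P0 was 0.0715 (0.0528 to 0.0950) for Mip, 0.0730 (0.0555 to 0.0945) for Bfsp1, 0.0763 (0.0555 to 0.103) for Lim2, 0.0679 (0.0395 to 0.110) for Bfsp2 and 0.209 (0.0833 to 0.464) for Gm49263. P21 was above P6 for Mip, at 4.19 (2.25 to 8.39), and for Lim2, at 4.57 (2.34 to 9.76), but for Bfsp1 and Bfsp2 the ratios were 1.24 (0.850 to 1.83) and 0.857 (0.433 to 1.67).

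The P21 values depended on 1 column. For Bfsp1 the P21 over P6 ratio was 2.09 (1.30 to 3.43) in the first column and 0.396 (0.170 to 0.853) in the second, in opposite directions, and for Lim2 it was 6.22 (2.90 to 15.3) and 0.990 (0.133 to 7.39). Mip had 51 tags in the first column of P21 and 1 in the second, a ratio of CPM of 51.2 (8.78 to 2061). Lim2 had 45 and 3 tags, a ratio of 15.1 (4.83 to 75.7), and Bfsp1 had 53 and 10, a ratio of 5.32 (2.68 to 11.7). In a comparison chosen after these values were seen, all 3 members with at least 20 tags in the first column were at least 5 times the second there, against 1.02% of 11315 genes and 3 of the 13 crystallin genes. The minimum was set on the column in which these members are high. Of 11144 genes with at least 20 tags in the second column, 0 were at least 5 times the first, and at other stages 0 or 1 were. The direction is thus not particular to the members. Bfsp2, with 11 and 7 tags, had a ratio of 1.58 (0.558 to 4.80). From the second column alone the P21 over P0 ratio of Mip was 0.00264 (6.67e-05 to 0.0148), and from the first alone 0.146 (0.106 to 0.197).

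At the high stages the columns lay close together. This is partly set by the choice of genes, because the limits had to be met in both columns. The first over the second column was between 0.762 and 0.956 in the 5 genes at E15.5 and P0, and below 1 in all 10 cases; the interval excluded 1 only for Lim2 at P0, at 0.782 (0.656 to 0.932). No member with that many tags passed 5 times there, where only 1.35% of genes did at E15.5 and 0.763% at P0, so this is no contrast with all genes. None of the 3 members with at least 20 tags in the first column did at E13.5 or at E18.5, against 0.694% and 0.368% of genes; Bfsp2 at E18.5, below that minimum, had 7 and 0 tags. At these low stages the first column was the higher in several members, with ratios of 2.17 (1.19 to 4.16) for Bfsp1 at E13.5, 1.90 (1.17 to 3.19) for Bfsp1 at E18.5 and 3.20 (1.56 to 7.22) for Lim2 at E18.5. At P6, where 1 member had 20 tags, Bfsp1, it was not past 5 times, against 6 of 10 crystallin genes with as many tags and 0.141% of all genes. Below that minimum, Mip had 13 and 0 tags, Lim2 8 and 3, Bfsp2 12 and 10, and Gm49263 4 and 0. Cryaa, chosen after its values were seen, fell outside the limits with 709 CPM in the first and 3.69 CPM in the second column of P0. What differs between columns was not tested.

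**Figure D4:**
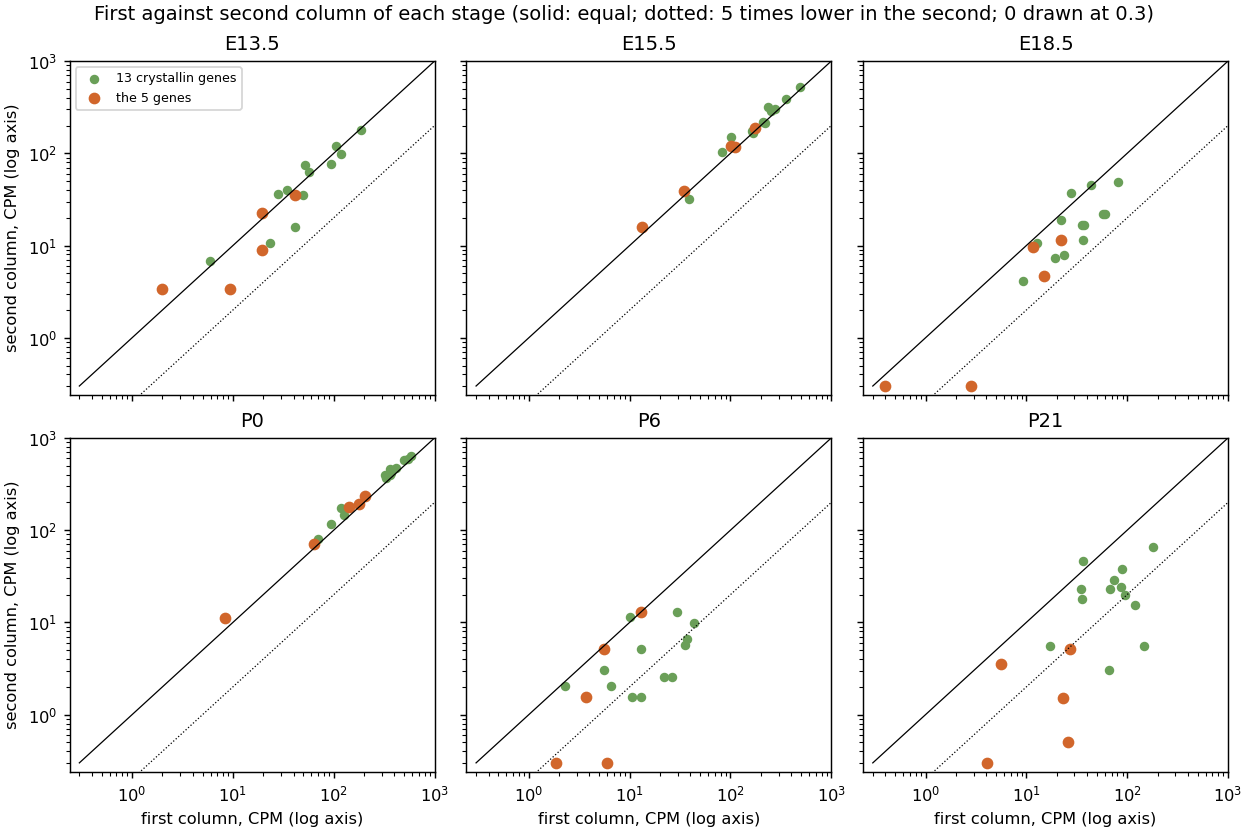
CPM in the first column (x axis) against the second (y axis) at each stage, both on log scales, for the 5 genes (orange) and 13 crystallin genes (green); the solid line marks equal levels and the dotted line a level 5 times lower in the second column. Points follow the solid line at E15.5 and P0, and at P21 all 5 genes and all crystallin genes but Crygs lie below it, with Mip at 26.0 and 0.509 CPM.

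A fit over stage order has 1 straight line per gene and cannot follow high stages with a low one between them. In edgeR's quasi-likelihood test with Benjamini-Hochberg adjustment over 14412 genes, 17.0% rose and 13.1% fell, and 0 of the 5 genes passed. None of the 5 had an unadjusted p under 0.05, and DESeq2 called 0 as well. The fitted log2 changes from E13.5 to P21 ran from -2.41 (SE 2.48, adjusted p = 0.487) for Mip to -0.56 (SE 2.51, adjusted p = 0.886) for Bfsp1. With 1 stage left out at a time, the number of all genes that rose ran from 891 (without P21) to 2650 (without P0) and was 1248 without E13.5, against 2449 with all stages. The number that fell ran from 428 (without P21) to 2404 (without P0), with 723, 789 and 985 without E13.5, E15.5 and P6, against 1890. Of 19 measured genes of the lens fibre list, 4 rose (Tdrd7, Hspb1, Tmod1 and Aqp5), and Galk1 was among those that fell. Of 12 lens transcription factors, Prox1 and Mafg rose and Sox2, Foxe3, Pitx3, Six3 and Meis1 fell; several of these, such as Prox1, Sox2 and Six3, are also known from retina. Of 16 crystallins none passed.

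The limits were also applied to single sites, of which 22 of 14777 with enough tags met them. Among these were all 8 sites of the 5 genes, but 4 of the 8 are the only site of their gene, so that their values are those that chose the gene. The 4 sites of Mip each met the limits, but their tags, added up, are those that chose Mip, so this too is a description. The others were 13 in crystallin genes and 1 in an intron of Timeless, the gene that follows Mip by 253 bases on the same strand and encodes a replication fork protein. That site (chr10:128232656-128232686, plus strand) lay 874 bases past the annotated end of Mip, and was named for being the only one outside members and crystallins. It had 7.35 and 6.20 CPM at E13.5, 54.4 and 65.9 CPM at E15.5, 4.01 and 4.17 CPM at E18.5, 43.4 and 53.5 CPM at P0, 2.31 and 0 CPM at P6, and 5.62 and 1.02 CPM at P21. The other sites of Timeless had 75.5 and 89.7 CPM at E13.5, 73.8 and 78.1 CPM at E15.5, 51.7 and 64.8 CPM at E18.5, 57.2 and 64.0 CPM at P0, 20.3 and 17.5 CPM at P6, and 24.5 and 8.14 CPM at P21. The intron site was high where Mip was high, and the rest of Timeless was not. The site was found by the limits that chose Mip, and Timeless as a gene did not meet them. This contrast therefore largely follows from the choice. Whether tags of the intron site come from transcripts begun at Mip or at Timeless was not tested.

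Mip was the only one of the 5 with more than 1 site. Counted from the last annotated base, with negative values upstream, its sites lay at -1139, -139, -1 and 104. Over E15.5 and P0 these held 25.4%, 6.95%, 44.0% and 23.6% of 1309 Mip tags. With the intron site of Timeless added, that site would hold 23.0% of 1700 tags (Wilson 95% interval 21.1 to 25.1). The sites without the signal in the 40 bases before their edge are shown for comparison with the site at -1, which has it. Their windows were chr10:128230644-128230673, chr10:128231644-128231673 and chr10:128231887-128231916 (plus strand), the last read as the reverse complement of a transcript of Gm26847, a lincRNA on the other strand that overlaps Mip.
Mip at -1139: tttgctgtgtgaaatctttcaagttgcatt
Mip at -139: accctgaacgaacaaggaatatttatttca
Mip at 104: ttgattcttattataattcagtagaaaacc

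The choice between Mip sites is not set by how the gene was chosen. Over all stages the site at -1 held the most Mip tags, and those at -1139 and 104 held 380 each. The pair of -1 and 104 thus had as many tags as the pair of -1139 and -1, but was not tested. The tested pair consisted of the site at -1139 and that at -1. The distal share of the pair was 71.9% at E13.5 (Wilson 95% interval 62.2 to 79.9), 65.0% at E15.5 (60.6 to 69.2), 75.7% at E18.5 (59.9 to 86.6), 61.7% at P0 (57.1 to 66.1), 57.1% at P6 (25.0 to 84.2, 7 tags) and 73.3% at P21 (55.6 to 85.8). The intervals of E15.5 and P0 overlapped. Over stage order the pair did not pass edgeR's diffSpliceDGE test (adjusted p = 0.987, 0.971 to 0.993 over the alternatives), where 2.18% of 6063 genes did. That background rested on single stages: 96 genes moved to the distal and 36 to the proximal site, and 0 and 0 without E13.5, 4 and 0 without P21, 13 and 10 without P6, 18 and 7 without E15.5, and 40 and 13 without E18.5. At this depth a change of the Mip pair smaller than these intervals was not detectable.

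**Figure D5:**
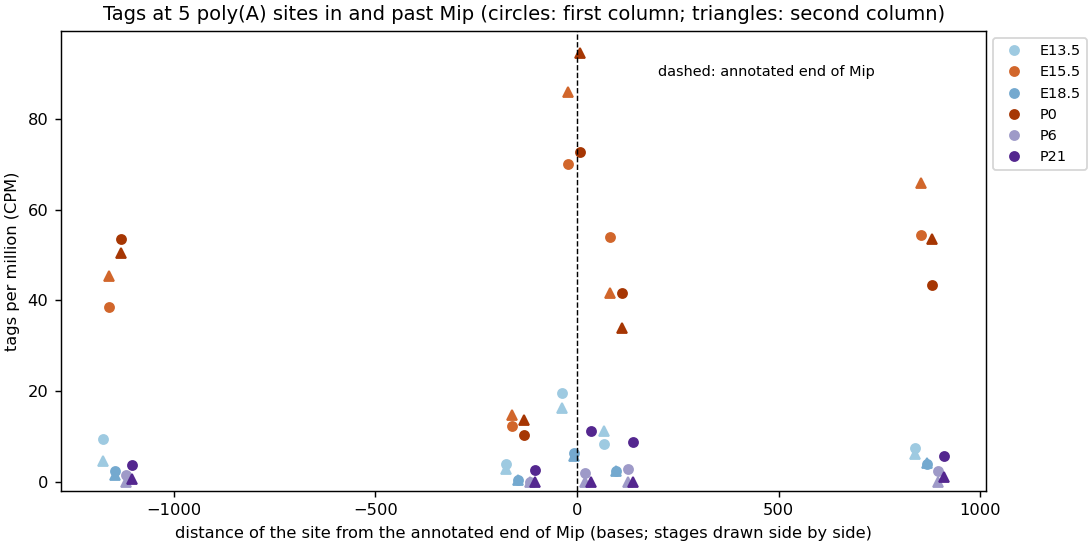
CPM at the 4 sites of Mip and the Timeless intron site (y axis) against the distance of the site from the annotated end of Mip in bases (x axis), by stage (colours) and column (circles first, triangles second). At all 5 sites E15.5 and P0 stand above the other stages. The tags of the 4 Mip sites chose Mip, and the intron site was found by the same limits.

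Promoters of 4 of the 5 genes were found in RefSeq (GRCm38.p6), from 250 bases before to 50 after the start, and Gm49263 was not matched. TGCTGA, part of the recognition element of Maf factors, which are known to drive lens fibre genes, was present on either strand in 3 of the 4, Bfsp1, Lim2 and Mip, and in 9 of 13 crystallin promoters, against 19.5% of 32851 promoters. TATAAA was in Mip and in 4 of 13 crystallin promoters, against 13.6% of promoters. ACAAAG, bound by Sox factors, was in Lim2 and in 5 of 13 crystallin promoters, against 18.7%. GAANNTTC, the heat shock element core, was in 0 of 4 and in 0 of 13 crystallin promoters, against 7.86%. A match of letters is a description and not a site. The windows with TGCTGA or its reverse complement in capitals, and the TATAAA of Mip, are shown because they are the letters these promoters have in common or apart. They lay at chr10:128225666-128225695, chr7:43429948-43429977, chr2:143863343-143863372 and chr10:128225795-128225824, in this order of the lines that follow. The starts differ between annotations. The TATAAA of Mip began at -3 from the RefSeq start and at -31 from the GENCODE start. The Lim2 match began at -139 from the RefSeq start and at 2290 from the GENCODE start, inside the GENCODE gene.
Mip: cgcccctcccccTGCTGAggagagagaaaa
Lim2: ttgtcccctgctTCAGCAaattccattggg
Bfsp1: cccgagacagccTCAGCAacatggtattat
Mip TATAAA: ttaagagtcctcTATAAAggggactgtcaa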

How the data were processed

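Counts of tags per poly(A) site, in 12 columns (2 for each of 6 stages), were deposited by the authors with 1 enrichment score per site, also as deposited; the score was not used in any comparison. The submitters' processing notes name BWA 0.7.5a-r405 as the aligner and mm10 as the build. Site clustering, duplicate removal and the meaning of the columns are not given in the sources used here. PCR reads without molecular identifiers are not independent molecules, so intervals cover counting error only.

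The 32688 sites were placed by their 3′ edge on GENCODE M21 genes of the same strand, or up to 1000 bases downstream, which took 29105 sites. Of these, 1433 lay in more than 1 gene or flank, where a gene that holds the site was preferred to a flank. CPM was computed over all tags of a column. The first and second column were added for tests and shown apart elsewhere. Intervals are exact 95% intervals (Poisson for CPM, conditional binomial for ratios) and Wilson intervals for shares.

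Abundance and site choice were fitted over stage order with edgeR 4.0.16 (R 4.3.3, limma 3.58.1), on genes with at least 1 CPM in 2 libraries, with 4 residual degrees of freedom and calls at an adjusted p of 0.05. For site choice, a site needed 5% of its gene's tags and the pair a mean of 20 tags per library. DESeq2 1.42.0 was an alternative. The fits were tested on simulated data with 50 genes changed at each size, in a straight line over stage order and with the same spread setting for all genes. At log2 changes of 2 and -2 the abundance fit (14417 genes) called 50 and 49, and the site choice fit (6063 genes) 40 and 40. High stages with a low one between them were not simulated, so these numbers do not carry over to the 5 genes. Genes named are the members, those nearest the limit, and others marked as chosen after their values were seen. Some genes that passed the stage-order fit in the lens fibre and transcription factor lists are named too. Of 13 lens capsule genes in that fit, 3 fell, and these are not named. The members and lists were chosen with earlier results of these data known. Strand was kept in the library protocol, per the labels' protocols. Some results of the lens lists are not reported here.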

Additional observations from a re-analysis of the deposited data

How the results depend on the processing

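The number of genes high at E15.5 and P0 was 4 to 6 under the other scalings, fold limits, minimum tags and downstream distances; Grifin joined under TMM and DESeq2 size factors and at a limit of 1.5, Gja3 without a minimum of tags, and Gm49263 was lost with sites in the gene alone and at 100 tags. It was 18 from the first columns alone and 8 from the second columns alone. In alternatives chosen after seeing the data, it was 10 without E13.5 among the low stages, 20 without E18.5, 13 with E15.5 alone as the high stage and 29 with P0 alone; all of these held the 5 genes. It was 6 without P6 and 5 with P21 added to the low stages. The P21 calls were the same under both other scalings.

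With 1 stage left out at a time, 891 to 2650 genes rose and 428 to 2404 fell over stage order, and 0 to 127 genes moved to the distal and 0 to 46 to the proximal site. From the first columns alone these last counts were 36 and 14, and the direction of the Mip pair, not called in any setting, turned, at an adjusted p of 0.985. It turned also without E13.5, E18.5 or P0; the adjusted p was 0.971 to 0.993 with a stage left out. No member was called in the stage-order fit in any setting. With a stage left out, the fitted log2 change of Mip stayed negative (-3.89 to -0.67), and those of the other members turned in sign, from -2.44 to 1.32 for Bfsp1, -2.31 to 1.04 for Bfsp2, -3.12 to 0.22 for Lim2 and -2.57 to 0.077 for Gm49263. The cause was not tested. No paired analysis was possible because each stage had 1 sample and the replicate number only names it. Depth limited Gm49263 and all members at E18.5, P6 and P21, where few tags stand behind each value.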
